A study of Mus musculus with 10 samples.

Results

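Claudins, cadherins and the other junction proteins that seal and join kidney epithelial cells were examined in obstructed mouse kidneys. The genes were the protein-coding ones whose symbol is a numbered claudin (Cldn), cadherin (Cdh), zonula occludens scaffold (Tjp) or MARVEL domain protein (Marveld), together with occludin (Ocln) and junctional adhesion molecule A (F11r). Vascular endothelial cadherin (Cdh5) was left out of the set. This gave 63 of 54532 annotated genes, of which 33 are claudins, 22 are cadherins and 8 are other junction proteins. The kidneys came from wild-type male C57BL/6 mice whose left ureter was ligated at 8 weeks of age, a model of unilateral ureteral obstruction (UUO), and were collected on day 14. Dimethyl malonate (DMM), an inhibitor of succinate dehydrogenase, was injected into the peritoneum at 40 mg/kg every other day in 5 mice, and 5 control mice received PBS. Every mouse carried the obstruction, so the comparison is of treated with untreated obstructed kidneys, and no unobstructed kidney was analysed here. Bulk mRNA libraries held between 15722527 and 19475833 counted reads, with a median of 17825223 in the PBS group and 16794390 in the DMM group.

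Tight junctions lie at the apical end of the lateral membrane, where claudins of neighbouring cells form a barrier with pores selective for particular ions, and each nephron segment uses its own set of claudins. Occludin and the MARVEL proteins join the same strands, and zonula occludens scaffolds tie them to actin. Cadherins of the adherens junction hold cells together through calcium-dependent contacts and bind catenins inside the cell. In obstructed tubules, loss of polarity and of these contacts is a known feature of injury, and mesenchymal cells carry other cadherins.

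Several libraries stood apart before any junction gene was compared. The deposited group means could be rebuilt exactly from the counts of 8 libraries, with a weight of 0 for PBS replicate 3 and for DMM replicate 1. The 25 interferon response genes summed to 7053, 4619, 5221, 7086 and 6846 CPM, on a TMM scale, in PBS replicates 1 to 5, and to 5648, 983, 865, 825 and 727 CPM in DMM replicates 1 to 5. DMM replicate 1 therefore lay in the PBS range, and the other 4 DMM libraries lay far below it. Proximal tubule markers were highest in PBS replicate 3 among the PBS libraries, as given with the proximal claudins. DMM replicate 4 had a median correlation of 0.915 with the other 9 libraries over 16505 genes, against 0.959 to 0.980 for the rest, which is a description of libraries and not a test. Results are therefore given over all 10 libraries, over the 8 without PBS replicate 3 and DMM replicate 1, and over the 7 that also leave out DMM replicate 4. A gene was called when the Benjamini-Hochberg adjusted p of edgeR's quasi-likelihood test was under 0.05 and its fold change was above 1.5. In bulk tissue, fewer cells of a type and less RNA per cell cannot be told apart.

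Of the 63 genes, 36 had enough reads to be tested over the 10 libraries and 37 over the 8, the additional gene being Cldn14. Over all 10 libraries edgeR called 0 of the 36 members, beside 0% of all 16505 genes tested. At an unadjusted p under 0.05, edgeR took 2 members, Cldn11 and Ocln, beside 10.9% of all genes. DESeq2 called 0 members over the 10, beside 0.146% of 30851 genes. Over the 8 libraries edgeR again called 0 members, of 37 tested, beside 6.3% of 16550 genes, 452 of them higher and 590 lower in DMM. At an unadjusted p under 0.05 edgeR took 10 members over the 8, 6 higher and 4 lower, or 27.0% of those tested, beside 21.6% of all genes. DESeq2 called 0 members over the 8 as well, beside 5.5% of 30191 genes. The members' median log2 fold change over the 8 was 0.040, beside 0.021 for all tested genes, and the median absolute value was 0.30 beside 0.27.

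The count turned on DMM replicate 4. Over the 7 libraries without it, edgeR called 4 of 37 members higher in DMM, Cldn2, Cldn10, Cldn14 and Cldn16, which is 10.8% of members beside 6.71% of all 16828 genes. It called 3 lower, Cdh11, Cdh23 and Cldn23, which is 8.11% of members beside 7.61% of all genes. These shares over the 7 are for 1 direction each, whereas the 6.3% over the 8 holds both, 452 higher and 590 lower of 16550 genes. At an unadjusted p under 0.05 it took 18 of the 37, or 48.6%, beside 39.3% of all genes. These member calls over the 7 depend on the choice of libraries. DMM replicates 1 and 4, both left out, held the lowest DMM values of Cldn2, Cldn10, Cldn14 and Cldn16. They also held the highest DMM values of Cdh11 and Cdh23, whereas for Cldn23 replicate 1 was highest and replicate 4 lowest. PBS replicate 3, left out too, had the highest PBS value of Cldn2, Cldn10 and Cldn16. Leaving DMM replicate 4 out of the 10 libraries gave 0 members, beside 0% of all genes, with 7 of 37 (18.9%) at an unadjusted p under 0.05, beside 17% of all genes. Leaving DMM replicate 1 out of the 10 gave 0 members too, beside 2.9% of all genes, with 8 of 37 (21.6%) at an unadjusted p under 0.05, beside 18.7% of all genes. Once base composition and transcript length were corrected for, an alternative chosen after seeing the data, edgeR called Cldn10 higher, beside 4.76% of all genes, and Cdh11 lower, beside 4.16%, over the 8 libraries. With scaling by library size alone it called Cdh11 lower, beside 4.23% of all genes. That scaling also moved the median of all genes from 0.021 to -0.093 and the split of all called genes from 452 higher and 590 lower to 276 and 700, which is from 43.4% to 28.3% higher. With it the members' median over the 8 was -0.079, so no direction is given for the family.

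**Figure D1:**
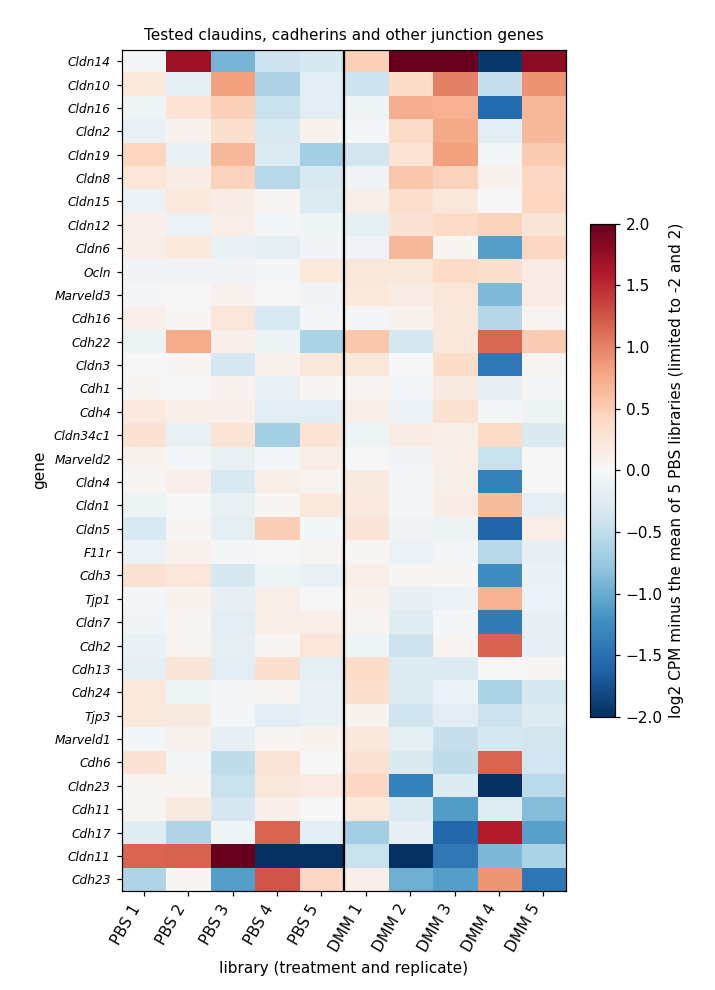
Each row is a tested member, 36 of 37 being drawn, and each column a library; colour gives log2 CPM minus the mean of the 5 PBS libraries, limited to -2 and 2, and rows are ordered by the log2 fold change without PBS replicate 3, DMM replicate 1 and DMM replicate 4. Cldn14, Cldn10, Cldn16 and Cldn2 are at the top with red cells in DMM replicates 2, 3 and 5, and DMM replicate 4 differs from these in many rows.

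The proximal tubule claudins were higher in some DMM libraries. Cldn2 forms the pore for sodium and water of the proximal tubule, and its CPM was 293, 338, 403, 262 and 339 in PBS replicates 1 to 5 and 317, 421, 544, 281 and 509.6 in DMM replicates 1 to 5. DMM replicates 2, 3 and 5 lay above every PBS library, whereas DMM replicates 1 and 4 lay within the PBS range. The log2 fold change of Cldn2 was 0.36 ± 0.19 (SE; edgeR adjusted p = 0.513) over the 10 libraries and 0.53 ± 0.19 (edgeR adjusted p = 0.149) over the 8. Without DMM replicate 4 it was 0.67 ± 0.11 with an edgeR adjusted p of 0.00302, and over the 16 alternatives on the 8 libraries that p ranged from 0.00302 to 0.543. Cldn10, whose isoforms form anion pores in the proximal tubule and cation pores in the thick ascending limb, had a CPM of 59.2, 44.5, 90.4, 33.1 and 43.3 in the PBS libraries and 37.9, 65.4, 102, 36.9 and 94.5 in the DMM libraries, both in replicate order. DMM replicates 3 and 5 exceeded every PBS library, DMM replicate 2 exceeded all but PBS replicate 3, and DMM replicates 1 and 4 were among the low values. Its log2 fold change was 0.33 ± 0.34 over the 10 libraries (edgeR adjusted p = 0.700), 0.74 ± 0.29 over the 8 (edgeR adjusted p = 0.184) and 0.95 ± 0.20 over the 7 (edgeR adjusted p = 0.00726), and the adjusted p over the alternatives on the 8 ranged from 0.00726 to 0.418.

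Proximal tubule markers, 12 genes led by Kap, had a summed CPM that was 3673, 3664, 9807, 1298 and 2619 in PBS replicates 1 to 5 and 2725, 7653, 6369, 5026 and 9462 in DMM replicates 1 to 5. PBS replicate 3 had the highest sum of all, and it also had the highest Cldn2 and Cldn10 of the PBS group. In DMM replicate 4 Lrp2, the largest part of its sum at 2339.9 CPM, and Cubn at 491 CPM were the highest of the 10 libraries, whereas Aqp1 at 183 CPM was the lowest. Of the 12 markers, none was at 3 counts or fewer in every library. Over the 8 edgeR called 4 higher, Cubn, Lrp2, Slc13a3 and Slc5a12, and 0 lower, beside 6.3% of all genes called. Over the 10 it called 0 of 12, with 2 at an unadjusted p under 0.05, beside 10.9% of all genes. Over the 7 libraries, where Cldn2 and Cldn10 were called, edgeR called 11 of the 12 markers higher too, beside 6.71% of all genes. Lrp2, the endocytic receptor megalin, differed by 1.97 in log2 (edgeR adjusted p = 0.0138) over the 8. The proximal tubule cadherins Cdh2 and Cdh6 went the other way over the 7. Their log2 fold changes were -0.22 (edgeR adjusted p = 0.270) and -0.53 (edgeR adjusted p = 0.00481). In PBS replicate 3 both were lowest of the PBS group, at 14.6 and 54.1 CPM. The part of proximal tubule content in the values of Cldn2, Cldn10, Cdh2 and Cdh6 was not tested.

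The thick ascending limb claudins Cldn16 and Cldn14 had DMM replicates 2, 3 and 5 on top. Cldn16, which with Cldn19 forms the pore for calcium and magnesium uptake, had a CPM of 11.3, 14.4, 16.6, 8.78 and 10.2 in PBS replicates 1 to 5, while the DMM libraries had 11.3, 19.9, 19.3, 4.01 and 19.1. The values of DMM replicates 2, 3 and 5 were close together and above every PBS library, DMM replicate 1 was inside the PBS range, and DMM replicate 4 was the lowest of the 10. The log2 fold change was 0.27 ± 0.36 (edgeR adjusted p = 0.769) over the 10, 0.48 ± 0.42 (edgeR adjusted p = 0.547) over the 8 and 0.80 ± 0.16 (edgeR adjusted p = 0.00551) over the 7, with a range from 0.00551 to 0.895 over the alternatives on the 8. Cldn19 had 57.6, 38.9, 68.1, 35.3 and 26.6 CPM in the PBS group and 33.1, 51.7, 75.5, 42.3 and 61.1 CPM in the DMM group. Its groups overlapped, with DMM replicate 3 alone above every PBS library, and the log2 fold change was 0.56 ± 0.25 over the 8 (edgeR adjusted p = 0.231). Cldn14, a claudin that limits calcium uptake through this pore, was scarce, at 0.318, 1.30, 0.114, 0.213 and 0.237 CPM in PBS and 0.498, 1.97, 3.25, 0 and 1.40 CPM in DMM. DMM replicates 2, 3 and 5 were the highest 3 libraries, and DMM replicate 4 had no read. Over the 8 libraries its log2 fold change was 1.68 ± 0.98 (edgeR adjusted p = 0.366), and over the 7 it was 2.10 ± 0.59 (edgeR adjusted p = 0.0282), with a range from 0.0282 to 0.771 over the alternatives on the 8.

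The 3 thick limb markers, led by Umod, summed to 2799, 2353, 3952, 1751 and 1497 CPM in PBS replicates 1 to 5 and 2376, 3825, 4367, 1496 and 4996 CPM in DMM replicates 1 to 5. DMM replicates 2, 3 and 5 again had high sums, as did PBS replicate 3. The low sum of DMM replicate 4 was due to Umod alone, at 936 CPM, whereas Slc12a1 at 471 and Egf at 88.96 CPM were above PBS replicates 1, 2, 4 and 5 there. Over the 8 libraries edgeR called 2 of the 3 higher, Egf and Slc12a1, beside 6.3% of all genes called in either direction. Over the 10 it called 0 of 3, with 0 at an unadjusted p under 0.05. Over the 7, where Cldn14 and Cldn16 were called, edgeR called 3 of 3 higher, beside that same 6.71% of all genes called higher alone. No marker of the list was at 3 counts or fewer throughout, and its part in the values of Cldn14, Cldn16 and Cldn19 was not tested.

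**Figure D2:**
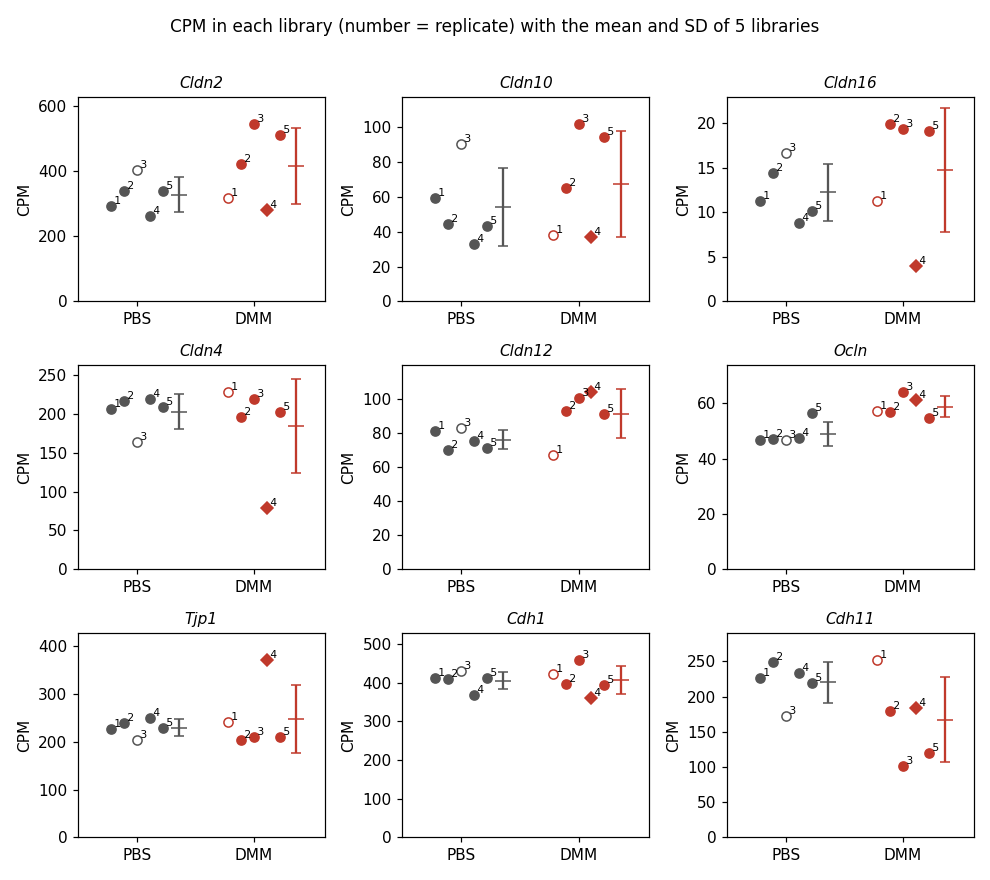
CPM of 9 members in each library, with the replicate number beside each point; the horizontal mark and bar give the mean and SD of 5 libraries, open points are PBS replicate 3 and DMM replicate 1, and the diamond is DMM replicate 4. Cldn2, Cldn10 and Cldn16 have DMM replicates 2, 3 and 5 high, Cdh11 has PBS replicates 1, 2, 4 and 5 above DMM replicates 2 to 5, and Cdh1 has both groups at like values.

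Claudins of the distal nephron and collecting duct were set apart mostly by DMM replicate 4. Cldn4, a collecting duct claudin of the chloride pathway, had 206, 216, 164, 219 and 209 CPM in PBS replicates 1 to 5 and 228, 195, 219, 79.2 and 202 CPM in DMM replicates 1 to 5. Apart from DMM replicate 4, the DMM libraries lay within or just above the PBS range. Its log2 fold change was -0.28 ± 0.26 over the 8 libraries (edgeR adjusted p = 0.573) and -0.052 ± 0.062 without DMM replicate 4 (edgeR adjusted p = 0.581; 0.459 to 0.733 over the alternatives on the 8). Cldn3, its neighbour on chromosome 5 at a distance of 39280 bases, had 63.9, 65.1, 50.9, 68.4 and 75.6 CPM in PBS and 75.2, 64.6, 83.1, 23.8 and 66.4 CPM in DMM. Again DMM replicate 4 was the lowest library, and the other 4 overlapped the PBS group. Cldn7, a claudin of the collecting duct with a broad distribution along the cell side, had 71.9, 76.5, 64.97, 80.97 and 81.8 CPM in PBS and 77.7, 63.1, 74.1, 28.4 and 67.1 CPM in DMM, where DMM replicates 2 and 4 were below every PBS library, the latter by far. Over the 8 libraries the log2 fold change was -0.19 ± 0.30 for Cldn3 (edgeR adjusted p = 0.755) and -0.41 ± 0.24 for Cldn7 (edgeR adjusted p = 0.369). Over the 7 it was 0.062 ± 0.10 for Cldn3 (edgeR adjusted p = 0.689; 0.513 to 0.970 over the alternatives on the 8) and -0.20 ± 0.075 for Cldn7 (edgeR adjusted p = 0.0830; 0.0830 to 0.574 over its own).

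Cldn8, which recruits Cldn4 to the tight junction of the collecting duct, differed from these. It had 114, 107, 132, 65.2 and 77.5 CPM in PBS replicates 1 to 5 and 91.7, 141, 132, 102 and 128 CPM in DMM replicates 1 to 5. DMM replicates 2, 3 and 5 were high, and PBS replicate 3 reached the same level. Cldn8 differed by 0.49 ± 0.19 in log2 over the 8 libraries (edgeR adjusted p = 0.171) and 0.55 ± 0.17 over the 7 (edgeR adjusted p = 0.0410), where it passed the adjusted p but not the fold change of 1.5. The adjusted p of Cldn8 over the alternatives on the 8 ranged from 0.0410 to 0.390. The 6 principal cell markers, led by Hsd11b2, summed to 370.5, 351, 581, 278 and 319.9 CPM in PBS and 409, 483, 568, 234 and 512 CPM in DMM. Of these, edgeR called 0 of 6 over the 8, beside 6.3% of all genes. At an unadjusted p under 0.05 it took 4, all higher, beside 21.6% of all genes. Over the 10 it called 0, with 0 at that p. Over the 7 it called 3 of 6 higher, beside 6.71% of all genes. No principal cell marker was at 3 counts or fewer in every library, and the part of collecting duct content in these values was not tested.

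Among claudins of other sites, Cldn12 had the smallest p over the 8 libraries. It is a widely expressed claudin linked to calcium transport, and its CPM was 81.01, 70.1, 82.8, 75.01 and 71.1 in PBS replicates 1 to 5 and 67.2, 92.8, 100.4, 104 and 90.8 in DMM replicates 1 to 5. DMM replicates 2 to 5 all exceeded every PBS library, and DMM replicate 1 was below every PBS library. The log2 fold change was 0.41 ± 0.11 over the 8 (95% interval 0.16 to 0.66; edgeR adjusted p = 0.0588) and 0.28 ± 0.13 over the 10 (edgeR adjusted p = 0.467), and over the 7 it was 0.35 ± 0.07 (edgeR adjusted p = 0.00672), under the fold change of 1.5. DESeq2 gave Cldn12 an adjusted p of 0.0141 over the 8, also under that fold change. Over the alternatives on the 8 the adjusted p of Cldn12 ranged from 0.00672 to 0.406. Cldn23, a claudin of epithelial barriers, was low, with 4.45, 4.51, 3.18, 5.16 and 4.91 CPM in PBS and 5.85, 1.65, 3.59, 0.734 and 2.98 CPM in DMM. The 4 DMM libraries of the 8 were below the 4 PBS libraries, but DMM replicate 1 was the highest of all 10 and PBS replicate 3 was below DMM replicate 3. Its log2 fold change was -1.08 ± 0.40 over the 8 (edgeR adjusted p = 0.160) and -0.79 ± 0.25 over the 7 (edgeR adjusted p = 0.0454), within a range from 0.0454 to 0.336 over the alternatives on the 8.

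Cldn11, known from myelin and Sertoli cell junctions, had the largest log2 fold change of any member over the 10 libraries, -2.02 ± 0.83 (edgeR adjusted p = 0.428). Its CPM was 3.66, 3.74, 6.99, 0.266 and 0.237 in PBS replicates 1 to 5 and 1.12, 0.191, 0.513, 0.790 and 0.9746 in DMM replicates 1 to 5. PBS replicates 1 to 3 held the high values, and PBS replicates 4 and 5 lay among or below the DMM libraries. Cldn1, a claudin of the parietal epithelium of Bowman's capsule, had 140.1, 150.0, 135, 154 and 174 CPM in PBS and 172, 148, 166, 232 and 132 CPM in DMM. DMM replicate 4 was the highest, and the other DMM values overlapped the PBS values. For Cldn1 the log2 fold change was 0.17 ± 0.20 over the 8 (edgeR adjusted p = 0.669) and -0.06 ± 0.095 over the 7 (edgeR adjusted p = 0.687; alternatives on the 8, 0.475 to 0.935). Cldn5, the main claudin of endothelium, had 21.5, 27.2, 23.4, 37.3 and 26.1 CPM in PBS and 31.9, 25.3, 24.8, 8.69 and 29.2 CPM in DMM, with DMM replicate 4 lowest. Its log2 fold change was -0.34 ± 0.33 over the 8 (edgeR adjusted p = 0.590) and -0.088 ± 0.17 over the 7 (edgeR adjusted p = 0.745; alternatives on the 8, 0.468 to 0.861). Of 6 endothelial markers, Egfl7 was likewise lowest in DMM replicate 4, at 15.6 CPM against 48.9 to 61.98 in the other libraries. Kdr at 124 CPM and Tek at 103 CPM went the other way, as both were highest of the 10 libraries there. The 6 summed, led by Pecam1, to 513, 654, 614, 766 and 577 CPM in PBS and 674, 569, 581, 685 and 621 CPM in DMM. EdgeR called 0 of 6 over the 8 or the 10, with 0 at an unadjusted p under 0.05 in both, none was at 3 counts or fewer in every library, and the part of endothelial content in Cldn5 was not tested. The other tested claudins were Cldn6, Cldn15 and Cldn34c1, with log2 fold changes over the 8 of 0.10, 0.30 and 0.17, and without DMM replicate 4, where Cldn6 was lowest at 4.29 CPM and Cldn34c1 highest at 2.88 CPM, of 0.34, 0.36 and 0.031. Cldn34c1 has close copies whose reads the counting could split.

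None of the MARVEL proteins was called in any set of libraries. Occludin (Ocln), which regulates the junction strands, had a CPM of 46.8, 47.1, 46.8, 47.4 and 56.4 in PBS replicates 1 to 5 and 57.2, 56.8, 64.1, 61.2 and 54.5 in DMM replicates 1 to 5. DMM replicates 1 to 4 exceeded every PBS library, and DMM replicate 5 exceeded all but PBS replicate 5, so that the groups overlapped by that pair alone. Ocln had the smallest p of the members over the 10 libraries, with a log2 fold change of 0.29 ± 0.10 (95% interval 0.073 to 0.50; edgeR adjusted p = 0.385), and a similar 0.28 ± 0.11 over the 8 (edgeR adjusted p = 0.190). Its adjusted p over the 18 alternatives on the 10 ranged from 0.160 to 0.702. Marveld1, a MARVEL domain protein of membranes and nucleus, had 77.03, 82.9, 69.6, 80.5 and 82.7 CPM in PBS and 91.4, 68.6, 57.00, 61.5 and 60.4 CPM in DMM. DMM replicates 2 to 5 were below every PBS library, and DMM replicate 1 was above every PBS library. Marveld1 differed by -0.36 ± 0.10 in log2 over the 8 (95% interval -0.59 to -0.13; edgeR adjusted p = 0.0656) and -0.20 ± 0.13 over the 10 (edgeR adjusted p = 0.568). Over the 7 it was -0.38 ± 0.072 (edgeR adjusted p = 0.00465), and DESeq2 gave an adjusted p of 0.0167 over the 8, both under the fold change of 1.5. The adjusted p of Marveld1 over the alternatives on the 8 ranged from 0.00465 to 0.519.

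Tricellulin (Marveld2), which seals the corners where 3 cells meet, had 41.4, 38.1, 35.5, 38.3 and 43.2 CPM in PBS and 38.98, 37.9, 42.96, 28.7 and 39.3 CPM in DMM. The groups overlapped and DMM replicate 4 was the lowest, and the log2 fold change over the 8 was -0.10 ± 0.13 (95% interval -0.38 to 0.19; edgeR adjusted p = 0.704) and -0.01 ± 0.075 over the 7 (edgeR adjusted p = 0.938; alternatives on the 8, 0.507 to 0.938). Marveld3, a tight junction MARVEL protein, had 23.6, 24.02, 25.8, 24.4 and 23.3 CPM in PBS and 27.96, 26.7, 28.5, 13.1 and 27.2 CPM in DMM. All DMM libraries but DMM replicate 4 exceeded every PBS library, by small amounts, and DMM replicate 4 was far below. Marveld3 differed by 0.015 ± 0.21 in log2 over the 8 (edgeR adjusted p = 0.977) and 0.20 ± 0.069 over the 7 (edgeR adjusted p = 0.0571; alternatives on the 8, 0.0571 to 0.999), both short of the threshold. F11r, which carries junctional adhesion molecule A and helps set polarity, had 146, 168, 154, 159 and 165 CPM in PBS and 163, 145, 155, 107 and 142 CPM in DMM. DMM replicates 2, 4 and 5 were below every PBS library, by little except in DMM replicate 4, and the log2 fold change was -0.20 ± 0.12 over the 8 (edgeR adjusted p = 0.377) and -0.12 ± 0.065 over the 7 (edgeR adjusted p = 0.212; alternatives on the 8, 0.212 to 0.595).

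Scaffold proteins of the zonula occludens link the strands to actin. Tjp1 encodes ZO-1, and its CPM was 226, 239, 204, 250.3 and 228 in PBS replicates 1 to 5 and 241, 204, 211, 371 and 211 in DMM replicates 1 to 5. DMM replicate 4 was the highest by a wide gap, and DMM replicates 2, 3 and 5 lay at the level of PBS replicate 3, below the other PBS libraries. Its log2 fold change turned from 0.11 ± 0.22 over the 8 (edgeR adjusted p = 0.808) to -0.18 ± 0.06 over the 7 (edgeR adjusted p = 0.0498; alternatives on the 8, 0.0498 to 0.941), the latter under the fold change of 1.5. Tjp3, which encodes ZO-3, had 46.6, 45.7, 39.7, 34.8 and 36.6 CPM in PBS and 42.7, 30.6, 34.6, 29.9 and 33.3 CPM in DMM. DMM replicates 2 to 5 were below every PBS library, by a narrow margin at PBS replicate 4, and DMM replicate 1 was inside the PBS range. For Tjp3 the log2 fold change was -0.33 ± 0.13 over the 8 (edgeR adjusted p = 0.178), and 0.0012 after the correction for GC content and length (edgeR adjusted p = 0.998), within a range of adjusted p from 0.0677 to 0.998 over the alternatives. Tjp3 overlaps Apba3 on the opposite strand by gene span, and their exons were not compared.

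The main epithelial cadherins were not called in any set of libraries. E-cadherin (Cdh1), which holds tubule cells together in the adherens junction, had 411, 409, 429, 367 and 411 CPM in PBS replicates 1 to 5 and 421, 395, 459, 361 and 394 CPM in DMM replicates 1 to 5. The mean was 405 ± 23.1 CPM (SD, n = 5) in PBS and 406 ± 36.3 CPM (SD, n = 5) in DMM, and the groups overlapped. For Cdh1 the log2 fold change was 0.02 ± 0.10 over the 10 (95% interval -0.19 to 0.23; edgeR adjusted p = 0.942) and 0.031 ± 0.11 over the 8 (95% interval -0.21 to 0.28; edgeR adjusted p = 0.899). Kidney-specific cadherin (Cdh16), found along the tubule, had 956, 909, 1059, 721 and 868 CPM in PBS and 877, 939.9, 1043, 601 and 930.5 CPM in DMM. Its libraries overlapped, with DMM replicate 4 lowest and PBS replicate 3 highest, and the log2 fold change was 0.04 ± 0.17 over the 8 (95% interval -0.34 to 0.42; edgeR adjusted p = 0.918). Cdh16 had 0.17 ± 0.10 over the 7 (edgeR adjusted p = 0.249) and 0.23 once GC content and length were corrected for (edgeR adjusted p = 0.201; alternatives on the 8, 0.201 to 0.993).

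N-cadherin (Cdh2), the cadherin of proximal tubule cells in the mouse, had 15.3, 17.3, 14.6, 17.1 and 19.8 CPM in PBS and 15.8, 12.5, 17.3, 38.1 and 14.9 CPM in DMM. DMM replicate 4 alone was high, and the other 4 overlapped the PBS group. Its log2 fold change was 0.30 ± 0.35 over the 8 (edgeR adjusted p = 0.663) and -0.22 ± 0.14 over the 7 (edgeR adjusted p = 0.270; alternatives on the 8, 0.270 to 0.909). Cdh6, or K-cadherin, a cadherin of the proximal tubule and of the developing nephron, had 93.6, 75.1, 54.1, 92.4 and 76.5 CPM in PBS and 95.2, 62.9, 54.3, 173 and 58.7 CPM in DMM. DMM replicate 4 was again the highest, whereas DMM replicates 2, 3 and 5 were below PBS replicates 1, 2, 4 and 5 and near PBS replicate 3. Cdh6 differed by 0.10 ± 0.38 in log2 over the 8 (edgeR adjusted p = 0.911) and -0.53 ± 0.10 over the 7 (edgeR adjusted p = 0.00481), a change of direction, and the latter was under the fold change of 1.5. The adjusted p of Cdh6 over the alternatives on the 8 ranged from 0.00481 to 0.978. P-cadherin (Cdh3), which lies next to Cdh1 on chromosome 8 at a distance of 46054 bases, had 92.04, 88.1, 59.8, 69.8 and 66.9 CPM in PBS and 81.8, 75.8, 75.5, 30.99 and 67.6 CPM in DMM. The groups overlapped with DMM replicate 4 the lowest, and the log2 fold change was -0.33 ± 0.25 over the 8 (edgeR adjusted p = 0.489) and -0.12 ± 0.12 over the 7 (edgeR adjusted p = 0.484; alternatives on the 8, 0.408 to 0.699). R-cadherin (Cdh4) had 4.08, 3.91, 3.81, 3.03 and 3.02 CPM in PBS and 3.86, 3.24, 4.39, 3.50 and 3.29 CPM in DMM, with a log2 fold change of 0.061 ± 0.21 over the 8 (edgeR adjusted p = 0.897).

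OB-cadherin (Cdh11) is the cadherin of fibroblasts and other mesenchymal cells. Its CPM was 226, 249, 172, 234 and 219 in PBS replicates 1 to 5 and 252, 179.8, 101, 184 and 119.6 in DMM replicates 1 to 5. Among the 8 libraries all 4 DMM values were below all 4 PBS values, but DMM replicate 1 was the highest of the 10 and PBS replicate 3 the lowest of the PBS group. The log2 fold change was -0.37 ± 0.23 over the 10 (95% interval -0.88 to 0.13; edgeR adjusted p = 0.542), -0.64 ± 0.21 over the 8 (95% interval -1.11 to -0.16; edgeR adjusted p = 0.112) and -0.80 ± 0.17 over the 7 (edgeR adjusted p = 0.00772). Over the 16 alternatives on the 8 the adjusted p ranged from 0.00772 to 0.407, and 3 of the alternatives called Cdh11 lower. The 8 fibroblast markers, led by Col3a1, summed to 6649, 9833, 5291, 14385 and 9237 CPM in PBS and 11360.5, 5377, 3760.3, 6881 and 4286 CPM in DMM. PBS replicate 3 was the lowest of the PBS group in the sum as in Cdh11, and DMM replicate 1 had a higher sum than all libraries but PBS replicate 4. Of these markers edgeR called 2 of 8 lower over the 8, Col1a2 and Postn, beside 6.3% of all genes called. Over the 10 it called 0 of 8, with 0 at an unadjusted p under 0.05. Over the 7, where Cdh11 was called, it called 4 of 8 lower, beside 7.61% of all genes, with 7 at an unadjusted p under 0.05, beside 39.3%. None was at 3 counts or fewer in every library, and the part of fibroblast content in the value of Cdh11 was not tested.

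Cdh23, the cadherin of hair cell tip links, had 0.530, 0.890, 0.341, 2.23 and 1.18 CPM in PBS and 0.934, 0.382, 0.342, 1.69 and 0.244 CPM in DMM. DMM replicates 2, 3 and 5 were low together with PBS replicate 3, and DMM replicate 4 was among the high values. Cdh23 differed by -0.48 ± 0.63 in log2 over the 10 (edgeR adjusted p = 0.766) and -0.80 ± 0.70 over the 8 (edgeR adjusted p = 0.556). Over the 7 libraries its log2 fold change was -1.89 ± 0.55 (edgeR adjusted p = 0.0325), within a range from 0.0325 to 0.881 over the alternatives on the 8, and this gene was singled out after its values were seen. Cdh23 overlaps by gene span with Vsir on the opposite strand, a gene with a mean of 66.7 CPM and a log2 fold change of -0.47 over the same 7 libraries (edgeR adjusted p = 0.00423), and whether exons of the pair overlap was not examined. T-cadherin (Cdh13), which lacks a cytoplasmic part and binds adiponectin, had 14.4, 19.6, 14.03, 20.7 and 14.2 CPM in PBS and 21.05, 13.6, 13.5, 16.4 and 16.7 CPM in DMM. The groups overlapped, with a log2 fold change of -0.17 ± 0.18 over the 8 (edgeR adjusted p = 0.631). Cdh17, Cdh22 and Cdh24 had log2 fold changes over the 8 of 0.092, 0.54 and -0.33 with edgeR adjusted p of 0.957, 0.584 and 0.366. Over the 7 these were -1.10, 0.13 and -0.26, with edgeR adjusted p of 0.157, 0.863 and 0.300, and Cdh17 changed direction without DMM replicate 4, which held 8.02 CPM against 0.799 to 2.29 in DMM replicates 2, 3 and 5.

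Per length, in the deposited FPKM, Cdh16 was the most abundant member in the PBS group at 235 ± 31.2 FPKM (SD, n = 5), and 231 ± 38.7 FPKM in DMM. Cldn4, Cldn2 and Cdh1 followed in PBS at 110.3 ± 12.5, 97.1 ± 15.5 and 87.5 ± 4.61 FPKM, each within about 1 SD of the next. In DMM the order of these 3 was Cldn2 at 124 ± 32.9, Cldn4 at 101 ± 31.6 and Cdh1 at 88.8 ± 6.40 FPKM. F11r had 58.8 ± 3.18 FPKM in PBS and Cldn3 50.8 ± 7.21, Cldn8 41.5 ± 11.3 and Cldn7 38.2 ± 3.67. Scaffolds were lower, with Tjp1 at 29.01 ± 2.31 FPKM and Tjp3 at 10.8 ± 1.39 in PBS. Cldn10 had 20.6 ± 8.40 FPKM in PBS, Cldn19 10.5 ± 3.91 and Cldn16 10.3 ± 2.63, so that the thick limb pair stood at the same level. Cdh11 had 24.4 ± 3.26 FPKM in PBS, above Cdh6 at 8.58 ± 1.80 and Cdh2 at 2.06 ± 0.252. At the low end Cldn14 had 0.202 ± 0.226 FPKM and Cdh23 0.0605 ± 0.0438. Of all 63 members, 26 were tested in neither set, and none of these had more than 17 counts in any library. Of the 63, 9 had no count in any library, and 8 of the 9 were claudins.

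DMM replicate 4 departed from DMM replicates 2, 3 and 5 in a way that followed the base composition of the genes. Among the 36 members tested over the 10 libraries, the median GC content of the longest transcript was 51.5%. The 18 members above it had a median log2 difference of -0.62 between DMM replicate 4 and the mean of DMM replicates 2, 3 and 5, and 15 of the 18 were lower in DMM replicate 4. The 18 at or below it had a median of 0.15, and 11 of the 18 were higher. Across all tested genes the same split gave -0.65 and 0.19. As a description across genes of the same libraries, which are not independent replicates, Spearman's rho with GC content was -0.41 over the 36 members and -0.48 over 16491 genes. The GC-rich members Cldn3, Cldn4, Cldn5 and Cldn7 differed by -1.57, -1.37, -1.59 and -1.26, and the GC-poor Cdh6 and Cldn1 by 1.56 and 0.65. Cldn16, near the middle of the GC range, differed by -2.25. In the opposite direction, the GC-rich Cdh23 and Cdh22 differed by 2.06 and 1.02 and the GC-poor Cldn8 by -0.39. The GC-rich Tjp3 differed by only -0.13. The cause of the departure was not tested.

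**Figure D3:**
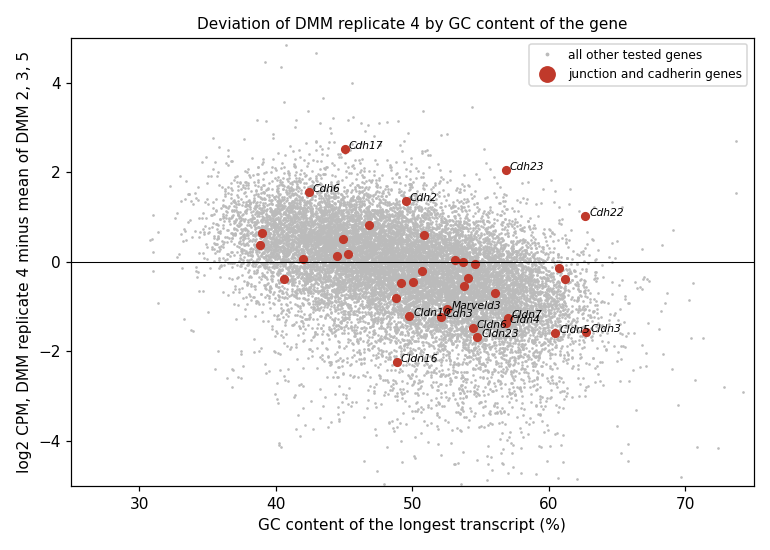
Each point is a gene tested over the 10 libraries, in red the junction and cadherin genes; the x axis is the GC content of its longest transcript in percent and the y axis the log2 CPM of DMM replicate 4 minus the mean of DMM replicates 2, 3 and 5, with values beyond the axis limits not drawn. The members spread downward with higher GC content like the other genes, with Spearman's rho of -0.41 for members and -0.48 for all genes.

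Partner genes outside the set were described by their counts, which stand beside 6.3% of all genes called and 21.6% at an unadjusted p under 0.05 over the 8, and 39.3% at that p over the 7. Of 26 tight junction partners, 25 were tested, and over the 8 libraries edgeR called 1 higher, Prkcz, with 7 at an unadjusted p under 0.05, all higher, and a median log2 fold change of 0.26, beside 0.021 for all genes. Without DMM replicate 4 that median was 0.12, beside -0.011 for all genes, with 10 higher and 2 lower at an unadjusted p under 0.05 and Prkcz again the only call. Prkcz, an atypical protein kinase C of the polarity complex, had a log2 fold change of 0.70 (edgeR adjusted p = 0.0222), and Cgnl1, or paracingulin, had 0.57 (edgeR adjusted p = 0.0441), under the fold change of 1.5. The partners' summed CPM, led by Cgnl1, was 2152, 2162, 2208, 2028 and 2050.0 in PBS and 2178, 2296, 2416, 3240.0 and 2342 in DMM, with DMM replicate 4 highest. Of 15 adherens junction partners edgeR called 1 higher over the 8, Pkp4, at 0.69 (edgeR adjusted p = 0.0370), and 0 lower, with 4 at an unadjusted p under 0.05. Pkp4 was highest in DMM replicate 4, at 439.7 CPM, and without that library it had 0.51, under the fold change of 1.5, so that the call was lost. Nectin4, an adhesion receptor of epithelia, differed by -0.99 in log2 over the 8 (edgeR adjusted p = 0.0528) and was called lower over the 7, at -0.78 (edgeR adjusted p = 0.00164). Of 8 desmosome genes edgeR called 0, with 1 at an unadjusted p under 0.05, Pkp2, and the 3 desmosome genes of smallest p were Pkp2, Dsp and Perp at 0.47, 0.54 and 0.24. Dsp was highest in DMM replicate 4, at 334 CPM, and without that library it had 0.21 (edgeR adjusted p = 0.220). Over the 10 libraries edgeR called 0 genes of any of these lists, with 5, 1 and 1 at an unadjusted p under 0.05, all higher, beside 10.9% of all genes.

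Regulators of junction genes and further markers were also counted, beside 6.3% of all genes called and 21.6% at an unadjusted p under 0.05 over the 8, and 6.71% called higher and 7.61% lower over the 7. Of 6 factors of the epithelial-mesenchymal transition, 5 were tested, and over the 8 edgeR called 1 lower, Twist1, at a log2 fold change of -0.78 (edgeR adjusted p = 0.0281). Snai1 and Snai2, repressors that bind E-cadherin's promoter, had -0.47 (edgeR adjusted p = 0.349) and -0.42 (edgeR adjusted p = 0.400). Without DMM replicate 4, where Zeb2 stood at 272 CPM and Snai2 at 13.4, edgeR called 3 of 5 lower, Twist1, Snai2 at -0.70 (edgeR adjusted p = 0.0194) and Zeb2 at -0.59 (edgeR adjusted p = 0.00158). Of 16 epithelial transcription factors edgeR called 1 higher over the 8, Hnf4a, a regulator of proximal tubule genes, at 0.88 (edgeR adjusted p = 0.0194), and 0 lower, with 3 higher and 4 lower at an unadjusted p under 0.05. Over the 7 it called 2 of these factors higher, Hnf4a at 0.93 (edgeR adjusted p = 0.00257) and Esrrb at 1.85 (edgeR adjusted p = 0.000461), and 0 lower. Of the 25 interferon response genes edgeR called 0 over the 10, where all 25 had an unadjusted p under 0.05, all lower. It called 25 lower over the 8, a set without DMM replicate 1, which these same genes set apart, so that count depends on the choice of libraries. Over the 10 edgeR called 0 factors of both other lists, beside 10.9% of all genes at an unadjusted p under 0.05. At that p stood 1 transition factor, lower, and 4 epithelial factors, 1 higher and 3 lower. Other segment and cell markers gave 2 of 3 tested distal convoluted tubule genes and 3 of 6 intercalated cell genes called higher over the 8, 2 of 8 leukocyte genes called lower, and 0 of 5 podocyte, 5 urothelial and 8 injured tubule genes called, with 0, 0 and 1 at an unadjusted p under 0.05. Over the 10 edgeR called 0 of all these markers, with 4 intercalated cell genes, all higher, and 5 leukocyte genes, all lower, at that p. All genes stood at 10.9% there. Over the 7 it called 5 leukocyte and 2 injured tubule genes lower, 2 distal convoluted tubule and 3 intercalated cell genes higher, and 0 podocyte, urothelial or endothelial genes. Markers of other tissues were low, with sums of at most 1.12 CPM for skeletal muscle and 10.3 for adrenal cortex (Ckm and Myh4, and Cyp11b2 and Hsd3b1, at 3 counts or fewer in every library), 68.95 for liver, of which edgeR called Alb and Serpina1a higher over the 8, and 77.4 for adipocytes, this last in PBS replicate 4.

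Promoters are shown for Cldn2, Cldn10 and Cldn16, 3 of the claudins that stood higher in DMM replicates 2, 3 and 5, and for Ocln, whose value held in DMM replicate 4 too. RefSeq promoters on build GRCm38.p6, 300 bases each from 250 before to 50 after a start, matched 44 of the 63 members by symbol and 25 of the 37 tested ones, with 35 starts. Letters were searched on both strands: TATAAA, the core of the TATA box, is in 13.6% of all 32851 promoters; GTTAAT, part of the site bound by hepatocyte nuclear factor 1, is in 7.1%; and CACCTG, an E-box of the kind bound by Snail and Zeb factors, is in 20.2%. Among the 35 promoters of tested members, 3, 3 and 12 hold them. The E-box letters are in promoters of 9 genes, Cldn3, Cldn4, Cldn6, Cldn7, Cldn14, F11r, Marveld2, Ocln and Tjp3. A match of letters is a description and no evidence of binding. The Cldn2 promoter (chrX:139800558-139800857, plus strand) has TATAAA in capitals, beginning 35 bases before the start, the first Cldn10 promoter (chr14:118787621-118787920, plus strand) has the reverse complement of GTTAAT in capitals, and the second Cldn10 promoter (chr14:118854700-118854999, plus strand) and the Cldn16 promoter (chr16:26462885-26463184, plus strand) hold none of the 3 motifs. Counts per gene do not separate transcripts from the 2 starts of Cldn10. In the Ocln promoter (chr13:100552449-100552748, minus strand) the capitals mark 2 reverse complements of CACCTG. A second Ocln promoter (chr13:100552669-100552968, minus strand), not printed, overlaps it and has 1 match. That match is the same site as the first one printed, and it lies after the start of the second promoter.
Cldn2: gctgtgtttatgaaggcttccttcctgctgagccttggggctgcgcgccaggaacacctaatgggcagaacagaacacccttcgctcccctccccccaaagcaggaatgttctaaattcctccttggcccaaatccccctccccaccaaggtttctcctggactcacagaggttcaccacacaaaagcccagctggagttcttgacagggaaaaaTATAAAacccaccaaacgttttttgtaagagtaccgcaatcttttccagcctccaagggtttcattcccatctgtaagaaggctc
Cldn10, first start: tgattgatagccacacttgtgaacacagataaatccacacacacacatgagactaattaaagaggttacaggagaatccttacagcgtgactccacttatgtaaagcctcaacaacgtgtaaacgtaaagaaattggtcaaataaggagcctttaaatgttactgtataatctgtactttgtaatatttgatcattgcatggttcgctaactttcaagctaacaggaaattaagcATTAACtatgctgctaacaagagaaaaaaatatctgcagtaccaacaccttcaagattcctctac
Cldn10, second start: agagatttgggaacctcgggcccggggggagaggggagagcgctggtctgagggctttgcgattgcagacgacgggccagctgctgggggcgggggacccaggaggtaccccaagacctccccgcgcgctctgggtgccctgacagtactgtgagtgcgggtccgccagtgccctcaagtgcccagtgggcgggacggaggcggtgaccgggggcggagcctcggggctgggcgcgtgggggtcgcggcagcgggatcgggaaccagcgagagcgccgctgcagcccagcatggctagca
Cldn16: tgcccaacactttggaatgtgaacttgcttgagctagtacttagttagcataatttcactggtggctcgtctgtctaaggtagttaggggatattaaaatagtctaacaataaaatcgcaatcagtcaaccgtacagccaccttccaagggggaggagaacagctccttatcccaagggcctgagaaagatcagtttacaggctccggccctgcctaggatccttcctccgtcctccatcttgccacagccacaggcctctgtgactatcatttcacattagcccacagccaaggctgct
Ocln: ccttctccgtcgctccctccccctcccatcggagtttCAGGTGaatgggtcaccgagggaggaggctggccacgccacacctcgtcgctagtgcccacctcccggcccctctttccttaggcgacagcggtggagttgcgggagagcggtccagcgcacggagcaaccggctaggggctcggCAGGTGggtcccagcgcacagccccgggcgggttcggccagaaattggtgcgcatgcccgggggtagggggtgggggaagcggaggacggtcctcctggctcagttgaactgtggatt

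The members' own positions on mm10 were as deposited. Cldn2 lies at chrX:139800828-139811386, Cldn10 at chr14:118787908-118875489, Cldn16 at chr16:26463135-26482765, Ocln at chr13:100496507-100552718, Cdh1 at chr8:106603351-106670246 and Cdh11 at chr8:102632095-102785642. Cldn1 and Cldn16 are neighbours on chromosome 16, 91294 bases apart on opposite strands, with log2 fold changes over the 7 libraries of -0.06 and 0.80. Marveld2 and Ocln are 43239 bases apart on chromosome 13, with -0.01 and 0.24. Over the same libraries Cldn3 and Cldn4 had 0.062 and -0.052, and Cdh1 and Cdh3 0.056 and -0.12. Whether neighbours resemble each other was not tested.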

How the data were processed

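Bulk RNA-seq of 10 UUO kidneys, 5 per group, was analysed from the table that the authors deposited. It holds the number of reads counted on each gene, as deposited counts without normalization and from a NovaSeq X Plus run. Reads were aligned to mm10 according to the paper, and the submitters' processing notes name HISAT2 2.0.5 without its role. The counting tool, annotation and strand setting are not given in the sources used here. FPKM values deposited by the authors, counts per gene length and library size, served for levels between genes only. The 2 columns of group means deposited by the authors hold a signal, counts divided by size factors and averaged, and were used to find which libraries they include. The gene length deposited by the authors is another column and was not used in a test. The authors' comparison columns hold a log2 fold change, a p-value and an adjusted p-value, and none was used. The methods state independent replicates, and the p-values measure the spread between these kidneys.

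Counts were filtered by filterByExpr, scaled by TMM and tested with edgeR 4.0.16 in R 4.3.3, with p-values adjusted over all genes tested. DESeq2 1.42.0 was an alternative. SEs and 95% intervals were derived from edgeR's F. CPM values share a TMM scale over 10 libraries, and log2 CPM used a prior count of 2. GC content and length came from GENCODE M21, whose positions matched the deposited ones for all 63 members. Named genes were all called members, the 5 of smallest p in each library set, 25 kidney junction genes whatever their values, up to 3 genes of smallest p in each list, and, chosen after their values were seen, Cdh23 and list genes that DMM replicate 4 set apart. A result for 1 member named by this rule is not reported here. Members and lists were chosen with earlier results of these data known. The steps were tested on simulated counts. Other alternatives were RLE factors, library size alone, other filters and thresholds, protein-coding genes alone, a replicate block and each library left out.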

Additional observations from a re-analysis of the deposited data

Results flagged for a closer look

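Values that stood far from the rest of their group were looked for in 90 groups of 5 libraries, over named members and some of the marker lists. Dixon's rule on the gap to the nearest other library took 12 values, and chance alone takes about 1 in 20 groups. DMM replicate 4 held 6 of them. Cldn4 was lowest there at 79.2 CPM, Marveld3 at 13.1 CPM and Cdh3 at 31.0 CPM. Tjp1 was highest there at 371 CPM, Cdh2 at 38.1 CPM and the summed tight junction partners at 3240 CPM. DMM replicate 1 held 1, with the summed interferon response genes at 5650 CPM. PBS libraries held the other 5. Cldn4 was lowest in PBS replicate 3 at 164 CPM, where the proximal tubule sum was highest at 9810 CPM. Cldn14 was highest in PBS replicate 2 at 1.30 CPM, as were the summed adherens junction partners at 3050 CPM, and Ocln was highest in PBS replicate 5 at 56.4 CPM. The tally of 12 does not cover the adipocyte and liver lists, which also held values far from their group. For adipocytes, PBS replicate 4 reached 77.4 CPM, whereas the next highest PBS library had 18.3 CPM. DMM replicate 5 reached 6.64 CPM for that list, against 0.249 CPM or less in the rest of its group. The liver sum of PBS replicate 3 was 36.6 CPM, whereas the next highest PBS library had 15.4 CPM. The cause of all these values was not tested.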

How the results depend on the processing

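Over the 10 libraries edgeR called 0 genes, and DESeq2 called 12 higher and 33 lower. With 1 library left out edgeR called 0 to 50 genes higher and 0 to 436 lower, the larger numbers without DMM replicate 1 and 0 without any other library. Members called stayed at 0 in every alternative on the 10 libraries, with 1 to 8 at an unadjusted p under 0.05 by edgeR and 3 by DESeq2. The number of all genes at that p moved as well. By edgeR it went from 1165 of 16792 without PBS replicate 5 to 3130 of 16760 (18.7%) without DMM replicate 1, where the 8 members were taken. By DESeq2 it was 2405 of 30851. Over the 8 libraries, where edgeR called 452 genes higher and 590 lower, DESeq2 called 749 and 910, library size alone 276 and 700, and the GC and length correction, chosen after seeing the data, 787 and 688. Leaving out 1 library gave 131 to 1129 genes higher and 276 to 1281 lower. The pairs were 225 and 367 without PBS replicate 1, 198 and 349 without PBS replicate 2, 160 and 317 without PBS replicate 4, 131 and 276 without PBS replicate 5, 377 and 572 without DMM replicate 2, 186 and 308 without DMM replicate 3, 1129 and 1281 without DMM replicate 4, and 168 and 302 without DMM replicate 5. Members called higher over the 8 were 0 in the main setting, 0 to 4 with a library left out and 1 with the GC and length correction. Members called lower were 0, 0 to 3 with a library left out, 1 with library size alone and 1 with the GC and length correction. The members' median log2 fold change went from 0.040 to -0.079 with library size alone, which also shifted all genes.

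Same-numbered deviations correlated at -0.060, 0.079, 0.34, 0.13 and -0.22 for replicates 1 to 5, and different-numbered ones at -0.53 to 0.39. So few values, from libraries that also differ in tissue markers, cannot settle whether the replicate numbers pair the samples. With the replicate block edgeR called 0 genes higher and 0 lower over the 8, with 2002 at an unadjusted p under 0.05, and 0 in both directions over the 10, with 1702 at that p. In the block over the 8, PBS replicate 1 and DMM replicate 3 have no same-numbered partner. Only replicates 2, 4 and 5 of each group therefore informed that contrast. This block gave the largest adjusted p over the alternatives on the 8 for Cldn2, Cldn12, Cldn14, Cldn16, Cdh11 and Marveld1, among others.

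Leaving out a library turned the log2 fold change over the 8 for Tjp1, between -0.18 and 0.20, for Cdh6, between -0.53 and 0.27, for Cdh2, between -0.22 and 0.48, for Cldn1, between -0.06 and 0.27, and for Cdh17, from 0.092 to -1.10, the negative values coming without DMM replicate 4, where Cldn3 turned to 0.062. The GC and length correction moved Tjp3 to 0.0012, and it also turned Cdh6 to -0.27, Tjp1 to -0.045 and Cldn3 to 0.0084. The cause was not tested. Of the named members, 10 of 30 over the 8 and 14 of 29 over the 10 changed sign in at least 1 setting. Depth limits the members near 1 CPM, such as Cldn14 and Cdh23.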
